A study of Saccharomyces cerevisiae with 4 samples.

Results

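Yeast without SOD1, which encodes the copper-zinc superoxide dismutase of the cytosol, were compared with wild type cells after both had met hydrogen peroxide. The comparison is the log2 signal of treated sod1Δ minus that of treated wild type, so a difference of 1 is 2-fold and a positive value means a higher level without SOD1. All S. cerevisiae genes whose brighter treated array exceeded the background were taken, 5341 of the 5449 genes measured. The background floor was 2.31 on the log2 scale, the 95th percentile of the Schizosaccharomyces pombe probe sets that share the array and had no target RNA here. The cells were haploid, of a strain named FM391, wild type or sod1Δ, and were grown at 30 °C in synthetic medium lacking leucine to early log phase (OD600 of about 0.4). Treatment was 0.4 mM H2O2 for 20 min, and an untreated culture of each strain was measured as well. Each of the 4 groups has 1 Affymetrix array, made from 50 ng of total RNA after whole-transcriptome amplification. There is therefore no replicate error and no test, and every difference compares 1 array with 1 array.

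Superoxide dismutase turns superoxide into hydrogen peroxide and oxygen, and in yeast the enzyme also takes part in signalling from glucose and oxygen. Yeast meeting peroxide induces peroxiredoxins, catalase and thioredoxin and glutathione enzymes through Yap1 and Skn7, and a general stress programme through Msn2 and Msn4. At the same time it lowers the transcripts for making ribosomes and slows the cell cycle.

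The SOD1 transcript followed the labels, at 14.21 and 2.40 untreated and 14.31 and 2.42 treated, wild type first and sod1Δ second in each pair. This order is kept for all levels below. Of the a-cell markers, STE2, the receptor for alpha factor, was bright on all arrays, at 12.74 and 12.65 untreated and 12.71 and 12.42 treated. The alpha-factor gene MF(ALPHA)1 was below the floor on all arrays, between 2.18 and 2.22. The other alpha-cell markers did not lie at background: MF(ALPHA)2 was at 7.41 and 7.40 untreated and 8.88 and 8.37 treated, the a-factor receptor gene STE3 at 6.72 and 8.04 untreated and 7.58 and 8.62 treated and the agglutinin gene SAG1 at 8.11 and 8.30 untreated and 8.59 and 8.83 treated. Of the auxotrophic markers measured, URA3 and MET17 were under the floor on all arrays, while LEU2, at 14.27 and 14.76 untreated and 14.66 and 14.76 treated in medium without leucine, HIS3, at 11.11 and 11.13 untreated and 11.64 and 11.18 treated, and LYS2 and ADE2 were bright.

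Most transcripts stood at close levels in the 2 treated strains. The median difference over all 5341 genes was -0.05, 75.9% of them lay within 1.5-fold, and the 5th and 95th percentiles were -1.12 and 0.79. At 2-fold, 164 genes (3.07%) were higher and 338 (6.33%) were lower in treated sod1Δ. The lower genes leaned to dim transcripts. With the mean treated level between 4 and 6, 31.3% of genes were lower and 7.48% higher, while between 8 and 10 the shares were 3.36% and 3.01%, and at 12 or above no gene was lower and 0.666% were higher. Among the 4520 genes whose brighter array was at 7 or above, 124 (2.74%) were higher and 176 (3.89%) lower. After a running median over genes of like level had been removed, 212 (3.97%) were higher and 241 (4.51%) lower, and quantile normalization gave 230 and 215, so the excess of lower genes depends on the scaling and is not read as a result. The part of amplification or background correction in the dim differences was not tested. Spread between probe sets of the same gene gives a partial view of precision: over 41 pairs the SD per probe set was 0.451, and over 28 bright pairs it was 0.250, with a gap over 2-fold in 4 and 1 of them. That spread is within arrays and does not cover differences between cultures.

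**Figure D1:**
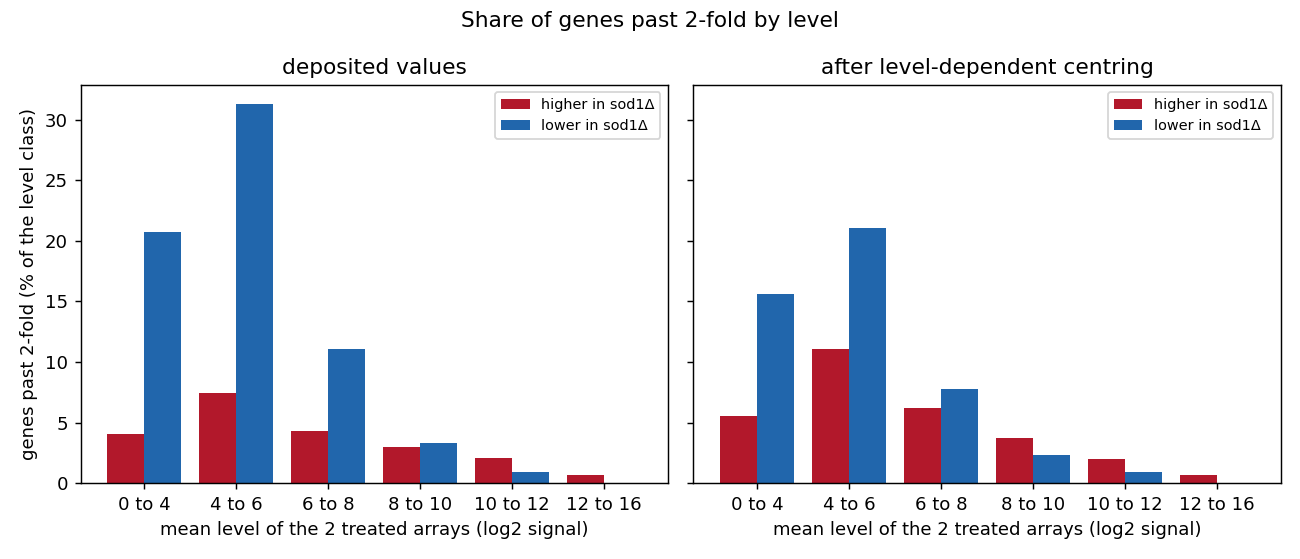
Percent of genes at least 2-fold higher (red) or lower (blue) in treated sod1Δ, by the mean log2 level of the 2 treated arrays, for the deposited values (left) and after level-dependent centring (right). Lower genes reach 31.3% of the class from 4 to 6 in the deposited values and 0% at 12 and above.

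**Figure D2:**
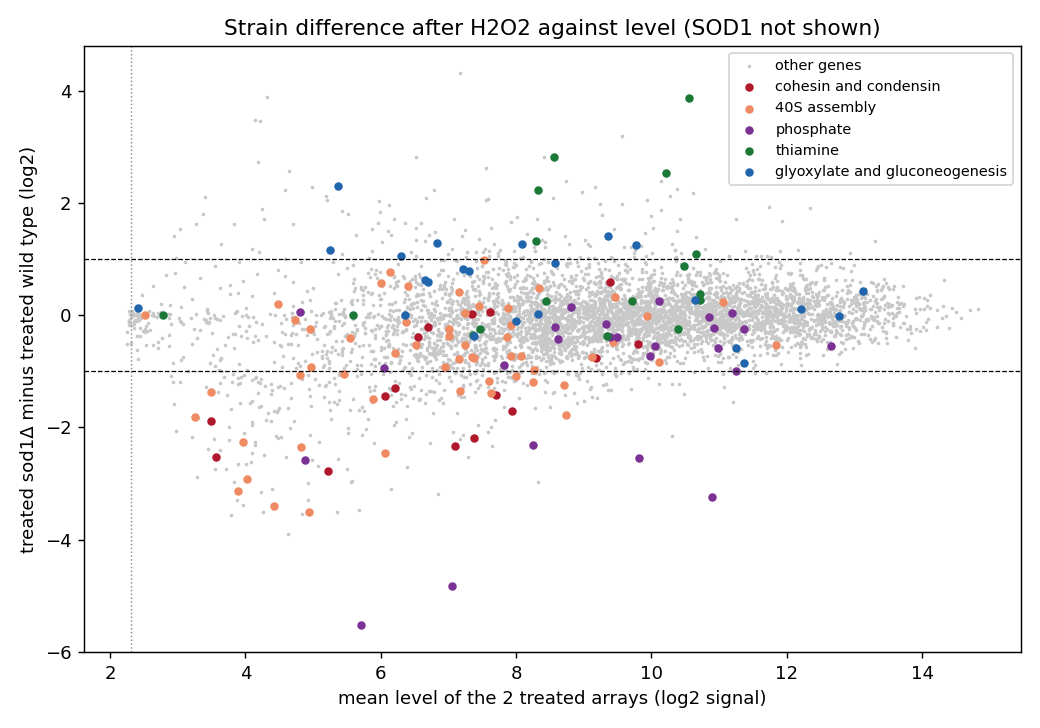
Each point is 1 gene: the x axis is its mean log2 level over the 2 treated arrays, the y axis the treated difference, sod1Δ minus wild type. Dashed lines mark 2-fold, the dotted line the floor of 2.31, and coloured points the members of 5 gene lists. The thiamine genes past 2-fold lie at 8.30 or above on the x axis. The phosphate genes past 2-fold run from 4.89 for PHO89 and 5.72 for SPL2 to 10.9 for PHO84. The 40S assembly genes with the lowest differences, ROK1, DHR2 and NOP14, lie between 3 and 6.

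The genes below are grouped in 59 lists by role. At 2-fold, 13 lists had no member past the line, 17 had lower members only, 11 higher members only and 18 both. The lists hold 69 of the 164 higher genes and 149 of the 338 lower ones. A list is described by its count and its median difference beside the all-gene values above, and none of these counts is a test. Level-dependent centring and quantile normalization moved counts of 3 or fewer by at most 2 genes, except for the higher 60S assembly genes, and moves of larger counts by over 1.5 times are given with the list.

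Genes of the cohesin ring and its regulators were among those lower in treated sod1Δ. Cohesin is the protein ring that holds sister chromatids together, and condensin a related complex that compacts chromosomes. Of 16 cohesin and condensin genes, 9 were lower and none higher, with a median difference of -1.36, against 6.33% lower and a median of -0.05 over all genes. The median level of the list was 7.22, and among all genes between 6 and 8 the share lower was 11.1%. SMC3, one of the ATPase arms of the ring, was at 8.44 and 8.26 untreated and 6.61 and 3.84 treated, a treated difference of -2.77 (6.83-fold lower). SMC1, the partner arm, was at 8.62 and 7.81 untreated and 8.80 and 7.10 treated, a difference of -1.70. MCD1, the closing subunit that separase cuts, was at 9.27 and 8.67 untreated and 8.46 and 6.28 treated, a difference of -2.18. For all 3 ring genes the treated sod1Δ array was the lowest of the 4, and the untreated strains were less than 2-fold apart. In bulk RNA, fewer cells in the phase that makes these transcripts and less of them per cell cannot be told apart, here and for all cell cycle lists.

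Regulators of the ring were among the lower genes. PDS5, which keeps cohesin on chromosomes, was at 8.77 and 8.52 untreated and 8.26 and 5.94 treated, a treated difference of -2.32. ECO1, the acetyltransferase that locks the ring in S phase, was dim, at 3.38 and 2.52 untreated and 4.43 and 2.54 treated. RAD61, which opens the ring, was at the floor in treated sod1Δ, with 4.08 and 3.93 untreated and 4.84 and 2.31 treated, so it was at least 5.76-fold lower. The other 3 lower genes, named after their values were seen, were IRR1, a cohesin subunit, at -1.42, and the condensin genes YCG1 at -1.44 and BRN1 at -1.30. Also chosen in this way, the separase gene ESP1 had a difference of 0.59 and the condensin ATPase genes SMC2 and SMC4 stood at -0.51 and 0.06. The count was 9 after level-dependent centring and 8 after quantile normalization. With the brighter array at 7 or above, 4 of 9 genes were lower. In the untreated strains none of the 16 was past 2-fold, with a median of -0.27. The H2O2 response, treated minus untreated, had a median over the list of -0.42 in wild type and -0.66 in sod1Δ.

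A smaller share of the replication genes was past 2-fold. Of 26 genes for DNA polymerases and fork factors, 10 were lower and none higher, with a median of -0.49, and 25 of the 26 differences were below 0. POL30, the sliding clamp PCNA, was at 10.06 and 9.71 untreated and 8.27 and 6.06 treated, a difference of -2.21 (4.63-fold lower). POL12, a subunit of DNA polymerase alpha, was at 8.74 and 8.85 untreated and 8.62 and 6.64 treated, a difference of -1.99. POL1, the catalytic subunit of the same enzyme, was at 10.50 and 10.34 untreated and 9.85 and 8.39 treated, a difference of -1.46. In each of these the untreated strains were within 0.35 of each other and the treated sod1Δ array was the lowest. The polymerase epsilon subunit DPB2 differed by -1.49, the polymerase delta subunit POL32 by -1.50 and the clamp unloader gene ELG1 by -1.52. After level-dependent centring 8 of the 26 were lower, and 8 of 24 with the brighter array at 7 or above. The count in the untreated strains was 1.

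Origin licensing and helicase genes held 7 lower members of 29 and none higher, with a median of -0.48. The median level of the list was 7.77, and among all genes between 6 and 8 the share lower was 11.1%. SLD2, which S-phase kinase phosphorylates to fire origins, was at the floor in treated sod1Δ, with 4.41 and 2.94 untreated and 5.58 and 2.01 treated, at least 9.61-fold lower. CDC45, a part of the replicative helicase, was at 7.63 and 6.92 untreated and 6.61 and 3.07 treated, a difference of -3.55. MRC1, which couples the fork to the replication checkpoint, was at 9.30 and 9.11 untreated and 9.32 and 7.69 treated, a difference of -1.63. SLD2 and CDC45 were dim on every treated array, while MRC1 was bright in wild type with and without treatment. The polymerase tether CTF4 differed by -1.56, the origin recognition subunit ORC6 by -1.55 and the Dbf4-dependent kinase subunit DBF4 by -1.35. Of the MCM helicase ring, MCM5, named after its value was seen, was the member past 2-fold, at -1.12.

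Spindle pole and kinetochore genes held 7 lower members each, of 28 and of 36. The spindle list had no higher member and a median of -0.65, and the kinetochore list 1 higher member and a median of -0.46. Their median levels were 6.92 and 7.84, and among all genes between 6 and 8 the share lower was 11.1%. KAR1, a half-bridge protein of the spindle pole body, was at 6.70 and 6.22 untreated and 5.27 and 3.01 treated, a difference of -2.26. SPC29, a spindle pole core protein, was at 6.14 and 4.46 untreated and 6.58 and 2.68 treated, a difference of -3.90. TUB4, gamma-tubulin, was bright at 10.10 and 9.80 untreated and 9.93 and 8.71 treated, a difference of -1.22. All 3 were lowest in treated sod1Δ. The motor gene CIN8 and the pole genes NBP1 and BBP1 differed by -1.43, -1.40 and -1.10. Level-dependent centring gave 4 of the 28 spindle genes lower, and the untreated strains had 5 lower.

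At the kinetochore, the structure that ties centromeres to microtubules, the centromeric histone variant CSE4 was at 6.98 and 5.83 untreated and 6.02 and 2.51 treated, a difference of -3.51. DUO1, of the ring complex that couples kinetochores to microtubules, was at 8.93 and 8.24 untreated and 7.87 and 5.59 treated, a difference of -2.28. CNN1, the yeast CENP-T, was at 7.05 and 6.09 untreated and 8.63 and 6.76 treated, a difference of -1.87. MIF2, the yeast CENP-C, and NSL1, of the MIND complex, differed by -1.35 and -1.34. CTF19, an inner kinetochore gene, went the other way, at 6.05 and 5.53 untreated and 6.85 and 8.42 treated, a difference of 1.56. It was the highest of its 4 arrays in treated sod1Δ, whereas CSE4, DUO1 and NSL1 were lowest there. With the brighter array at 7 or above, 4 of 25 kinetochore genes were lower and 1 higher. The untreated strains had 4 lower of 37.

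G1 and S phase regulators held 4 lower genes and 1 higher of 15, with a median of -0.51. CLN3, the cyclin that starts G1 to S transcription, was the higher one, at 11.26 and 11.79 untreated and 10.20 and 11.37 treated, a difference of 1.17. CLN2, a G1 cyclin of the next step, was at 10.35 and 9.95 untreated and 7.91 and 6.88 treated, a difference of -1.03. CLB6, an S phase cyclin, was at 7.25 and 6.26 untreated and 5.31 and 2.35 treated, a difference of -2.97, which ends close to the floor. NRM1, a co-repressor of G1 genes, and SWE1, the kinase that delays mitosis, differed by -1.37 and -1.24. A list of mitotic cyclins, CLB2 cluster genes and other mitotic regulators had 2 lower of 19. These were the phosphatase CDC14 at -1.25 and the forkhead factor FKH1 at -1.04, the latter dim after treatment. No mitotic cyclin of the list was past 2-fold. None of 11 daughter cell separation genes was past 2-fold, with a median of 0.31.

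Histones stood apart from the other S phase lists in sign. None of 9 core and variant histone genes was past 2-fold, 8 of 9 differences were above 0, and the median was 0.33. HTB1, an H2B gene, was nearest to the line, at 11.69 and 12.01 untreated and 10.52 and 11.50 treated, a difference of 0.97.

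DNA damage checkpoint and ribonucleotide reductase genes held 5 lower and 1 higher of 19, with a median of -0.36. The median level of the list was 6.97, and among all genes between 6 and 8 the share lower was 11.1%. RAD53, the checkpoint kinase, was at 6.29 and 5.38 untreated and 7.05 and 4.09 treated, a difference of -2.96. MEC3, of the clamp that senses damage, was at 7.86 and 6.99 untreated and 7.31 and 5.81 treated, and RAD17, of the same clamp, at 8.91 and 8.33 untreated and 8.43 and 7.34 treated. All 3 were lowest in treated sod1Δ. The kinase DUN1 differed by -1.48. HUG1, a small inhibitor of ribonucleotide reductase that is induced by DNA damage, was higher in sod1Δ in both conditions, at 4.20 and 7.36 untreated and 4.18 and 6.23 treated. RNR3, the damage-inducible large subunit of the reductase, was at 3.37 and 4.46 untreated and 7.11 and 5.80 treated, lower in sod1Δ after treatment and higher before it. Both treated levels of RNR3 were above both untreated levels. RNR2 and RNR4, the small subunits, named after their values were seen, differed by -0.10 and -0.36 after treatment.

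Of 47 DNA repair genes, 8 were lower and none higher, with a median of -0.38. The median level of the list was 7.72, and among all genes between 6 and 8 the share lower was 11.1%. NTG1, a glycosylase for oxidized pyrimidines, was at 5.74 and 5.10 untreated and 7.96 and 6.50 treated, a difference of -1.46. SGS1, a RecQ helicase, was at 6.73 and 6.26 untreated and 5.20 and 3.46 treated, a difference of -1.74. PMS1 and MSH6, of mismatch repair, differed by -1.69 and -1.19, and RDH54, a recombination translocase, by -1.32. With the brighter array at 7 or above, 3 of 35 were lower, so most of this list's lower members were dim.

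**Figure D3:**
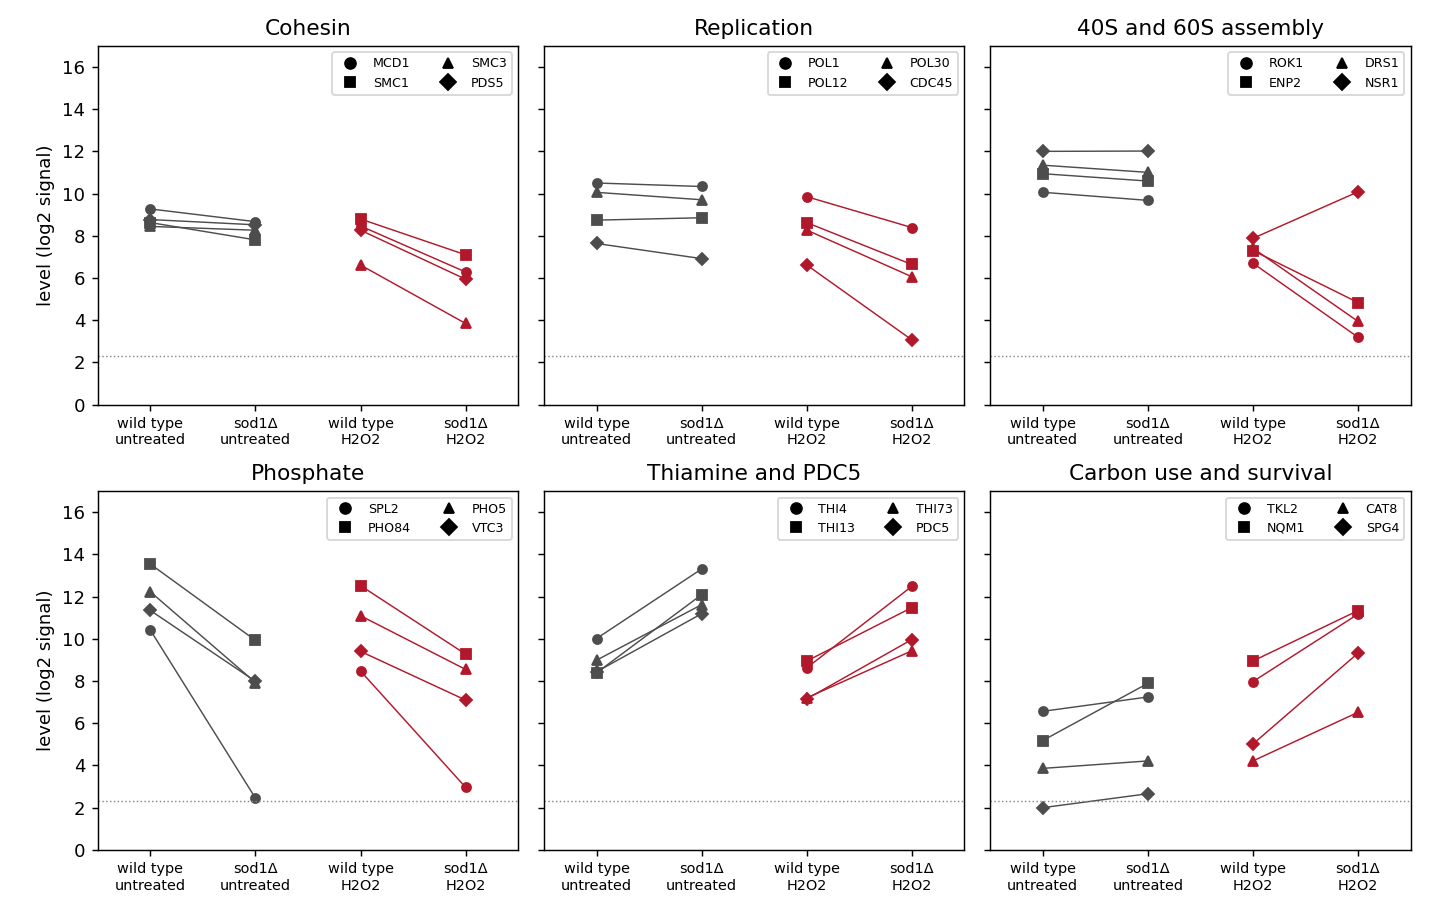
Log2 levels of 24 genes on the 4 arrays, with grey lines joining the untreated strains and red lines the treated strains; the dotted line is the floor of 2.31. The cohesin, replication and ribosome assembly genes shown are less than 2-fold apart in the untreated strains, SMC1 being furthest at -0.82. After H2O2 they are over 2-fold apart, lower in sod1Δ except NSR1, which is higher. The phosphate and thiamine genes shown differ in both conditions.

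Many genes for assembling the small ribosomal subunit were lower in treated sod1Δ than in treated wild type. Of 56 genes of the small-subunit processome and 40S assembly, 19 were lower and none higher, with a median of -0.72. The 56 do not include the nucleolin gene NSR1, which also serves the small subunit and was higher, at 2.21. Transcripts of the 56 genes are low after H2O2 in both strains. Of the 56, 53 were at least 2-fold down with H2O2 in wild type and 54 in sod1Δ, with median responses of -3.22 and -3.64. ENP2, of the processome, was at 10.94 and 10.59 untreated and 7.30 and 4.84 treated, a treated difference of -2.46 (5.52-fold lower). ROK1, an RNA helicase, was at 10.06 and 9.68 untreated and 6.70 and 3.19 treated, a difference of -3.51. DHR2, also a helicase, was at 10.47 and 10.22 untreated and 6.11 and 2.72 treated, a difference of -3.40. All 3 were above 9.6 in both untreated strains, and their treated sod1Δ levels lay at 4.84 or below. NOP14, TSR1 and NOC4, all needed for 40S assembly, differed by -3.14, -2.92 and -2.36, each with the sod1Δ array at 3.64 or below. The median treated level of this list was 7.16, and among all genes between 6 and 8 the share lower was 11.1%. Level-dependent centring gave 16 lower and 1 higher, and quantile normalization 15 lower and 2 higher. With the brighter array at 7 or above 8 of 33 were lower, against 3.89% of all genes at that level. In the untreated strains 1 was lower, and the median difference was -0.24. Levels were higher there, so the treated and untreated counts come from different level ranges.

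The 60S assembly genes did not share one direction. Of 68, 11 were lower and 3 higher, with a median of -0.18. Level-dependent centring gave 11 lower and 6 higher, and quantile normalization 8 of each with a median of 0.00. DRS1, an RNA helicase, was at 11.35 and 11.01 untreated and 7.41 and 3.94 treated, a difference of -3.47 (11.1-fold lower). NOP7, a core factor of early 60S particles, was at 10.92 and 10.51 untreated and 8.29 and 6.15 treated, a difference of -2.14. NSR1, the yeast nucleolin, stood opposite to these, at 12.002 and 12.02 untreated and 7.88 and 10.08 treated, a difference of 2.21. NSR1 was counted in this list, although nucleolin is needed for making the small subunit. The untreated levels of NSR1 were within 0.02 of each other. The other 2 higher genes, named after their values were seen, were RRS1 at 1.72 and RLP7 at 1.64. MAK5, a helicase, and RSA3, an assembly factor, differed by -2.66 and -2.49, with treated sod1Δ levels of 2.56 and 3.03. NOP13, a nucleolar RNA-binding protein, was at 10.29 and 9.70 untreated and 7.11 and 3.60 treated, the lowest difference of the list at -3.50. Of the 68 genes, 66 were down with H2O2 in wild type and 64 in sod1Δ, and no member was past 2-fold between the untreated strains.

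Genes of tRNA and rRNA modification held 7 lower and 1 higher of 38, with a median of -0.23. GCD10, a subunit of a tRNA methyltransferase, was at 10.34 and 9.92 untreated and 7.71 and 4.60 treated, a difference of -3.10 (8.6-fold lower). TRM11, a tRNA guanosine methyltransferase subunit, was the higher one, at 10.91 and 11.17 untreated and 6.07 and 7.55 treated, a difference of 1.48. Level-dependent centring and quantile normalization each gave 3 lower. RNA polymerase I and III subunits, listed together with polymerase I initiation factors, held 6 lower and 2 higher of 36, with a median of -0.31. Level-dependent centring gave 4 lower and 3 higher, quantile normalization gave 3 of each, and 2 were lower and 1 higher of the 22 with the brighter array at 7 or above. Median levels were 7.97 for the modification list and 7.99 for the polymerase list. Among all genes between 6 and 8 the share lower was 11.1%. RPA190, the largest subunit of polymerase I, was at 11.02 and 10.86 untreated and 8.77 and 7.30 treated, a difference of -1.47. RRN10, of the polymerase I upstream factor, was at 6.37 and 4.94 untreated and 6.53 and 4.90 treated, and RRN11, of the core factor, was at least 2.53-fold higher, with treated wild type under the floor, at 6.84 and 6.87 untreated and 2.24 and 3.65 treated.

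Ribosomal protein genes, which are bright, stood slightly below the all-gene median with few past 2-fold. Of 75 large-subunit genes 1 was lower, with a median of -0.28 and 70 differences below 0. It was RPL21B, at 13.01 and 12.50 untreated and 11.80 and 10.80 treated, on the 2-fold line. None of 52 small-subunit genes and none of 74 mitochondrial ribosomal protein genes was past 2-fold, with medians of -0.26 and -0.13. None of 21 cytosolic tRNA synthetase genes was past 2-fold either, with a median of -0.29. Translation factors held 1 lower gene of 34, the hypoxic eIF5A gene ANB1.

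**Figure D4:**
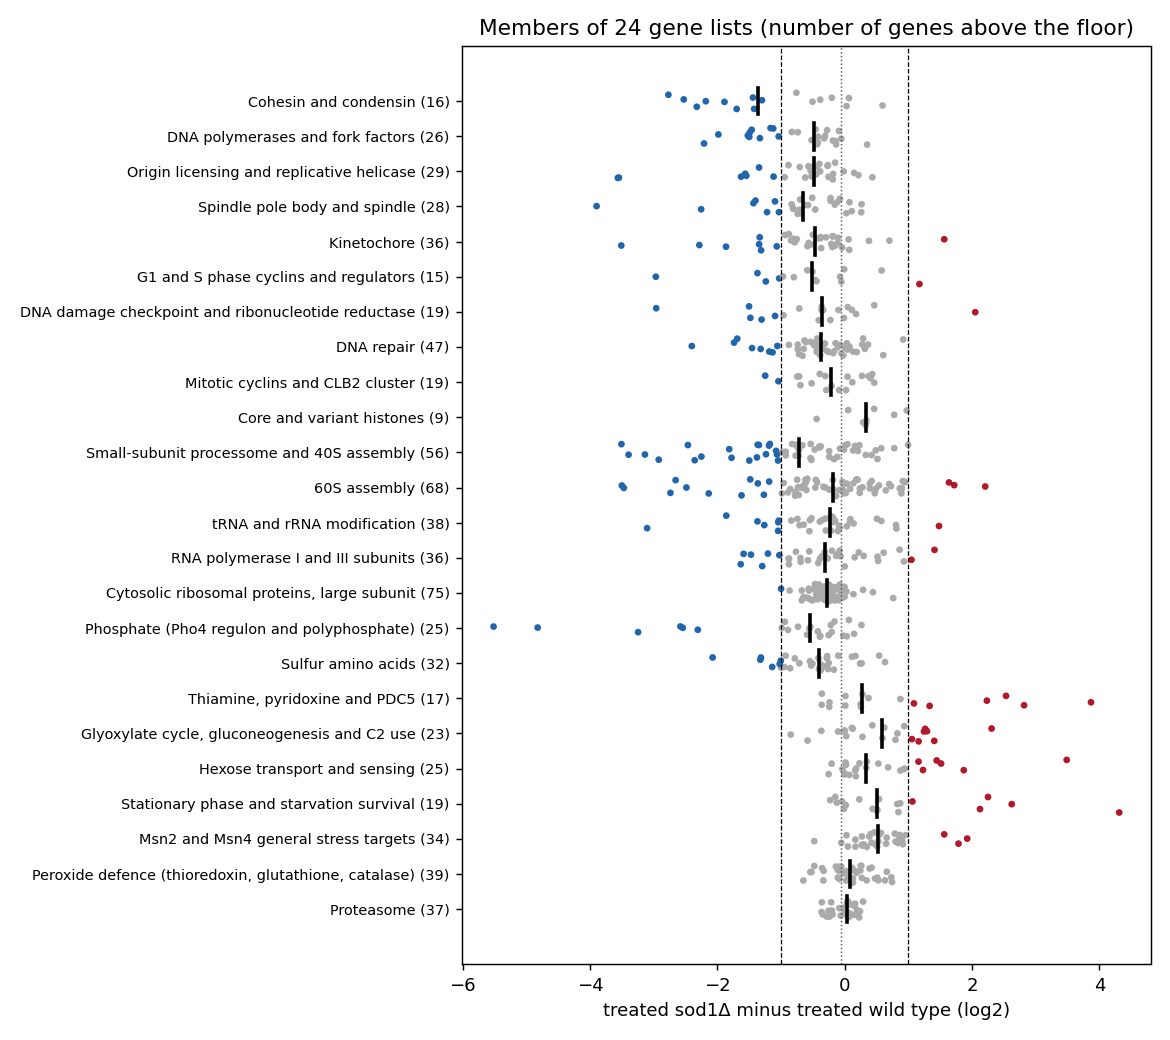
Treated difference (sod1Δ minus wild type, log2) of each member of 24 gene lists, with list sizes in brackets; blue points are at least 2-fold lower, red at least 2-fold higher, black bars are list medians, the dotted line is the all-gene median of -0.05 and dashed lines mark 2-fold. SOD1 is in none of these lists. Medians run from -1.36 for cohesin and condensin to 0.59 for glyoxylate and C2 genes.

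After SOD1 itself, the largest differences in size were those of the phosphate genes SPL2 and PHO11, and they were already in place without peroxide. Yeast short of phosphate turns on Pho4, which raises transporters, secreted acid phosphatases and the enzymes that store polyphosphate. Of 25 genes of this system 6 were lower in treated sod1Δ and none higher, with a median of -0.54. SPL2, which restrains low-affinity phosphate uptake, was at 10.41 and 2.45 untreated and 8.47 and 2.96 treated, a difference of -5.52 (45.8-fold lower). PHO5, the main secreted acid phosphatase, was at 12.23 and 7.93 untreated and 11.09 and 8.55 treated, a difference of -2.55 (5.84-fold lower). PHO89, a sodium-coupled phosphate transporter, was at 8.56 and 3.21 untreated and 6.18 and 3.60 treated, a difference of -2.58. Both sod1Δ arrays were below both wild type arrays for all 3. VTC3, of the polyphosphate polymerase, was at 11.34 and 7.98 untreated and 9.40 and 7.10 treated, a difference of -2.31. PHO84, the high-affinity transporter, differed by -3.25. PHO11, another acid phosphatase, differed by -4.82, from a probe set it shares with near-identical genes.

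All 6 lower phosphate genes were also lower in untreated sod1Δ, where 9 were lower and the median was -0.75. For SPL2, PHO11, PHO89, PHO5 and VTC3 the untreated difference was the greater by over 1 log2 unit, and wild type lost more signal with H2O2 than sod1Δ did. SPL2 and PHO89, at 2.45 and 3.21 in untreated sod1Δ, were near the floor there and had little signal left to lose. For PHO5, far above the floor, the wild type level went from 12.23 to 11.09 and the sod1Δ level from 7.93 to 8.55. Over the list, 9 genes were down with H2O2 in wild type and 2 in sod1Δ. Levels near the floor limit the fall of SPL2 and PHO89, whereas PHO11, VTC3 and PHO84 stood at 5.55, 7.98 and 9.93 in untreated sod1Δ. What sets the smaller count in sod1Δ was not tested. The regulators PHO4, PHO81, PHO80 and PHO85, named after their values were seen, differed by -0.89, -0.42, -0.16 and 0.26 after treatment. Level-dependent centring and quantile normalization each gave 7 lower genes.

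Several thiamine genes were higher in sod1Δ in both conditions. Thiamine pyrophosphate is the cofactor of pyruvate decarboxylase and transketolase, and its shortage turns on the THI genes and PDC5. Of 17 measured genes of a list of 22, 6 were higher in treated sod1Δ and none lower, with a median of 0.28. THI4, which makes the thiazole ring, was at 10.01 and 13.31 untreated and 8.62 and 12.49 treated, a difference of 3.87 (14.6-fold higher). THI73, a transporter of the thiamine regulon, was at 8.99 and 11.62 untreated and 7.20 and 9.43 treated, a difference of 2.23 (4.7-fold higher). THI2, an activator of the THI genes, was at 7.45 and 9.20 untreated and 7.63 and 8.96 treated, a difference of 1.33. Each had both sod1Δ arrays above both wild type arrays. PDC5, a pyruvate decarboxylase, was at 8.44 and 11.19 untreated and 7.15 and 9.97 treated, a difference of 2.82. THI7, the thiamine transporter, was at 11.94 and 12.70 untreated and 10.12 and 11.21 treated, a difference of 1.09. THI13, of the pyrimidine branch, differed by 2.53, from a probe set shared with near-identical genes. Of these 6, 5 were also higher in untreated sod1Δ, where 9 members were higher and the median was 1.01. The median response to H2O2 was -0.36 in wild type and -0.83 in sod1Δ.

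Several genes for using carbon sources other than glucose were higher in treated sod1Δ. Of 23 genes of the glyoxylate cycle, gluconeogenesis and use of C2 compounds, 7 were higher and none lower, with a median of 0.59, against 3.07% and -0.05 over all genes. CAT8, an activator of gluconeogenic genes, was dim, at 3.86 and 4.21 untreated and 4.21 and 6.52 treated, a difference of 2.31 (4.95-fold higher). ADR1, an activator of ethanol and glycerol use, was at 7.81 and 9.36 untreated and 9.15 and 10.39 treated, a difference of 1.24. GUT2, the mitochondrial glycerol-3-phosphate dehydrogenase, was at 6.03 and 7.79 untreated and 8.65 and 10.06 treated, a difference of 1.41. ADR1 and GUT2 were higher in sod1Δ without peroxide too, while CAT8 was not. The acetylcarnitine gene YAT1, the acetate carrier gene ADY2 and the ethanol-oxidizing ADH2 differed by 1.29, 1.16 and 1.26. ICL1, FBP1 and CIT2, named after their values were seen, are core enzymes of the same routes and stood at -0.11, 0.00 and -0.01. Of the 7 higher genes 2 were higher in the untreated strains. None of 17 TCA cycle genes was past 2-fold, with a median of 0.25, and of 35 respiratory chain and ATP synthase genes 2 were higher, ATP18 at 1.06 and COX8 at 1.02, with a median of 0.41 and 32 differences above 0.

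Hexose transport and sensing genes held 6 higher of 25 and none lower, with a median of 0.34. HXT2, a high-affinity glucose transporter, was at 12.13 and 12.32 untreated and 9.21 and 11.08 treated, a difference of 1.87 (3.65-fold higher). HXT4 was at 8.26 and 8.87 untreated and 7.44 and 8.88 treated, a difference of 1.44. HXT5, a transporter of starved and slow-growing cells, was at 6.63 and 8.22 untreated and 9.77 and 10.93 treated, a difference of 1.16. HXT2 and HXT4 were past 2-fold with H2O2 and not without it, whereas HXT5 was already higher in untreated sod1Δ. HXT11 differed by 1.51 and HXT10 by 3.49, the latter from a wild type level of 2.41, just above the floor. MIG2, a repressor that acts on glucose, differed by 1.23.

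In the pentose phosphate pathway, which supplies NADPH, the higher genes were 3 of 15. TKL2, a minor transketolase, was at 6.56 and 7.24 untreated and 7.97 and 11.17 treated, a difference of 3.20 (9.2-fold higher). NQM1, a minor transaldolase, was at 5.18 and 7.89 untreated and 8.95 and 11.34 treated, a difference of 2.39. GND2, the minor 6-phosphogluconate dehydrogenase, was at 7.25 and 9.43 untreated and 10.40 and 12.11 treated, a difference of 1.71. NQM1 and GND2 were higher in sod1Δ in both conditions, TKL2 after treatment. The major isoenzymes, named after their values were seen, were not past 2-fold: ZWF1 differed by 0.05, GND1 by 0.12, TKL1 by -0.20 and TAL1 by -0.03. The list median was 0.05. Glycolysis and fermentation held 1 higher gene, the minor pyruvate decarboxylase PDC6 at 1.81 and dim, and 1 lower gene, ADH4 at -1.54, of 24.

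Genes of stationary phase and starvation survival had 5 higher members of 19 and none lower, with a median of 0.51. SPG4, needed for survival in stationary phase, was at 1.996 and 2.66 untreated and 5.01 and 9.32 treated, a difference of 4.31 (19.8-fold higher), the largest increase among genes at 7 or above. FMP45, a membrane protein of the eisosome region, was at 5.72 and 8.15 untreated and 9.25 and 11.50 treated, a difference of 2.25. TMA10, a protein associated with the translation machinery, was at 2.88 and 7.98 untreated and 9.21 and 11.34 treated, a difference of 2.12. SPG4 was near the floor in both untreated strains, while FMP45 and TMA10 were higher in untreated sod1Δ, and TMA10 differed more there, by 5.10. The other higher genes were MOH1 at 2.62 and FMP16 at 1.06.

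The peroxide defence genes were close in the treated strains. None of 39 genes for thioredoxin, glutathione, peroxiredoxin and catalase functions was past 2-fold, with a median of 0.09 and a range from -0.65 for GRX6 to 0.74 for TRX3. Of these genes, 20 were up at least 2-fold with H2O2 in wild type and 19 in sod1Δ. The median treated level of the list was 11.89. Among all genes between 10 and 12 the shares higher and lower were 2.06% and 0.892%, so few past 2-fold are found at such levels. In the untreated strains 6 of the 39 were higher in sod1Δ and 1 lower, with a median of 0.10. Members with large responses, named here after their values were seen, give examples. SRX1, sulfiredoxin, was at 2.42 and 2.66 untreated and 12.81 and 12.70 treated. CTT1, cytosolic catalase, was at 3.78 and 2.74 untreated and 12.46 and 11.98 treated. GPX2, a peroxidase, was at 9.03 and 8.28 untreated and 12.70 and 12.96 treated. Each was more than 8-fold higher with H2O2 in both strains, and the treated strains lay within 0.48 of each other. SOD2, the mitochondrial superoxide dismutase, also named afterwards, differed by 0.16, and CCS1, the copper chaperone of Sod1, by -0.21. Of 24 Yap1-linked oxidoreductases and transporters 1 was higher, OYE3, an NADPH oxidoreductase, at 4.15 and 5.20 untreated and 12.37 and 13.49 treated. None of 37 proteasome genes was past 2-fold, with a median of 0.04, nor any of 12 copper genes, with a median of 0.01.

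General stress genes showed smaller strain differences after H2O2 than before it on these arrays. Of 34 Msn2 and Msn4 targets 3 were higher in treated sod1Δ, with a median of 0.52 and 32 differences above 0, while 22 were higher in untreated sod1Δ, with a median of 1.23. The median response was 3.04 in wild type and 1.83 in sod1Δ. Median treated levels of the list were 12.01 in wild type and 12.48 in sod1Δ, and at 12 or above 0.666% of all genes were higher. Levels were lower before treatment, so the treated and untreated counts come from different level ranges. USV1, a stress-induced zinc finger factor, was at 4.50 and 6.53 untreated and 8.38 and 10.16 treated, a difference of 1.79. HSP26, a small heat shock protein, differed by 1.92. GAC1, which directs a phosphatase to glycogen synthase, was at 3.40 and 4.27 untreated and 5.73 and 7.30 treated, a difference of 1.56. With the debranching enzyme gene GDB1 at 1.17, GAC1 made 2 higher genes of 24 for trehalose and glycogen. Of 29 cytosolic chaperone genes 3 were higher, HSP26, the Hsp70 gene SSA4 at 1.14 and CUR1 at 1.67, with a median of 0.39 and 24 differences above 0. Of 25 genes of folding in the endoplasmic reticulum none was higher and 1 was lower, the disulfide isomerase gene EUG1 at -1.23.

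Autophagy and vacuolar proteolysis genes held 6 higher and 1 lower of 40, with a median of 0.17. The higher ones were mostly receptors of selective autophagy and their scaffold. ATG39, a receptor for the nuclear envelope and endoplasmic reticulum, was at 3.01 and 5.64 untreated and 7.54 and 9.94 treated, a difference of 2.40 (5.27-fold higher). ATG32, the mitophagy receptor, was at 7.08 and 8.36 untreated and 8.43 and 9.70 treated, a difference of 1.27. ATG11, the scaffold that receptors bind, was at 7.31 and 8.53 untreated and 7.72 and 9.25 treated, a difference of 1.53. The peroxisome receptor gene ATG36 differed by 1.06, the vacuolar protease gene PRB1 by 1.05 and, named after its value was seen, the receptor gene ATG40 by 1.02. Of the 6, 5 were also higher in untreated sod1Δ. ATG16, of the complex that drives membrane growth, was the lower one, at 2.19 and 1.94 untreated and 5.66 and 2.27 treated, at least 10.2-fold lower, and it was above the floor in treated wild type alone.

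Sulfur amino acid genes held 6 lower of 32 and none higher, with a median of -0.41. CBF1, which binds the promoters of these genes and also centromeres, was at 8.45 and 6.98 untreated and 8.62 and 6.55 treated, a difference of -2.08 (4.22-fold lower). MET28, a partner of Cbf1, was at 7.27 and 5.73 untreated and 10.02 and 8.70 treated, a difference of -1.33. MET16, the reductase of activated sulfate, was at 9.08 and 8.003 untreated and 10.36 and 9.05 treated, a difference of -1.32. All 3 were lower in untreated sod1Δ as well. MET1, STR3 and MET31 lay just past the line, at -1.14, -1.02 and -1.01, and quantile normalization gave 3 lower genes. Other amino acid lists had few members past 2-fold: none of 9 for lysine, 1 of 14 for arginine and histidine (ARG2 at -1.01) and 1 of 27 for branched-chain and aromatic amino acids (LEU9 at -1.41). Of 28 purine and pyrimidine genes 2 were lower, the CTP synthase gene URA7 at 11.56 and 11.28 untreated and 7.64 and 5.89 treated and FUR1 at -1.22.

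Iron and zinc genes were mixed. Of 33 genes of iron uptake and sparing, 2 were higher and 1 lower in treated sod1Δ, with a median of 0.08, whereas 11 were higher in untreated sod1Δ, with a median of 0.68. FIT1, a cell wall protein that holds siderophore iron, was at 5.92 and 10.21 untreated and 6.997 and 9.82 treated, a difference of 2.82 (7.06-fold higher). FIT3, its relative, was at 12.25 and 14.04 untreated and 12.65 and 13.97 treated, a difference of 1.32. FRE4, a ferric reductase, was at 7.07 and 5.37 untreated and 6.74 and 4.89 treated, a difference of -1.85. Of 15 zinc genes, ZAP1, the zinc-responsive activator, was higher at 1.12 and ADH4 lower. For NAD, BNA2, which opens the route from tryptophan, was at 9.47 and 11.46 untreated and 9.56 and 11.27 treated, a difference of 1.71, and NRK1, a nicotinamide riboside kinase, was at 9.88 and 9.15 untreated and 9.78 and 8.25 treated, a difference of -1.53.

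The a-cell and pheromone response list held 8 lower and 2 higher of 36, with a median of -0.28. GPA1, the G protein alpha subunit, was at 10.20 and 9.35 untreated and 9.43 and 8.01 treated, a difference of -1.43. SST2, which switches that G protein off, was at 9.96 and 8.49 untreated and 9.74 and 8.46 treated, a difference of -1.28. BAR1, the protease that degrades alpha factor, was at 12.25 and 11.44 untreated and 11.71 and 10.43 treated, a difference of -1.28. The factor TEC1 and the fusion gene PRM1 differed by -1.56 and -1.85. PRM7 and STE3, the latter an alpha-cell marker that this list also holds, were the higher genes, at 1.71 and 1.04. The 2 probe sets averaged for PRM7 gave 2.48 and 0.95, so they disagree on whether it is past 2-fold. Level-dependent centring gave 6 lower genes and quantile normalization 5. Of the 8 lower genes 5 were also lower in untreated sod1Δ. Among meiosis genes, dim in these haploid cells, 8 were lower and 3 higher of the 38 above the floor, and both scalings gave 5 lower. The median level of the list was 5.84. Among all genes between 4 and 6 the shares lower and higher were 31.3% and 7.48%, so these counts are not read as a result. ZIP1, of the synaptonemal complex, was at 4.002 and 2.61 untreated and 5.09 and 2.34 treated, a difference of -2.75, and IME2, the meiotic kinase, at 3.63 and 2.64 untreated and 7.04 and 4.76 treated, a difference of -2.28; CDA1, a spore wall deacetylase, was at 5.25 and 7.91 untreated and 5.67 and 7.91 treated, a difference of 2.23.

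Other lists held few genes past 2-fold. Cell wall genes had 4 higher and 1 lower of 43, led by PIR3 at 1.99 and KNH1 at 1.89. Hypoxic genes had 1 higher, TIR2 at 1.03, and 2 lower of 21. The lower genes were AAC3, the anaerobic ADP/ATP carrier, at least 9.3-fold lower, and ANB1, at least 5.35-fold lower. Both had lower untreated levels in sod1Δ too, by -2.43 and -4.17. Phospholipid and inositol genes had 3 lower of 24, including the activator INO4 at 6.99 and 5.06 untreated and 8.11 and 6.03 treated. Peroxisome and fatty acid oxidation genes had 2 higher, SPS19 at 1.51 and PEX11 at 1.02, and 1 lower, PXA2 at -1.54, of 32. Nitrogen catabolite genes had VID30 higher at 1.05 and DAL7 lower at -1.02, of 33, and iron-sulfur assembly had ISD11 higher at 1.11 and JAC1 lower at -1.14, of 29. None of 28 ergosterol and none of 37 mitochondrial import genes was past 2-fold, with medians of -0.09 and 0.09.

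Some of the largest differences were of genes outside these lists. ABF1, a general regulatory factor of many promoters, was at 8.11 and 7.50 untreated and 7.05 and 4.07 treated, a difference of -2.98 (7.89-fold lower). PLM2, a protein with a forkhead-associated domain, was at 4.47 and 4.13 untreated and 7.75 and 5.04 treated, a difference of -2.71. CHA1, the catabolic serine deaminase, was at 8.997 and 7.73 untreated and 9.81 and 6.84 treated, a difference of -2.97. PLM2 was far higher in treated wild type than on any other array, while CHA1 was lowest in treated sod1Δ. MNN1, a mannosyltransferase, and FOL1, of folate synthesis, differed by -2.33 and -2.16. Of dimmer genes, HO, the mating-type switching endonuclease gene, was at 10.88 and 10.07 untreated and 6.57 and 3.28 treated. RTT107, of replication fork repair, was at 7.58 and 7.46 untreated and 5.80 and 2.66 treated. Higher genes outside the lists included AQR1, a plasma membrane transporter, at 11.23 and 11.82 untreated and 8.01 and 10.31 treated, a difference of 2.29. VTS1, an RNA-binding protein, was at 9.42 and 9.69 untreated and 5.14 and 7.10 treated, a difference of 1.97. COS12 was the largest increase among dim genes, at 2.32 and 6.30 untreated and 2.37 and 6.27 treated, with a like difference in both conditions.

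The untreated strains, on 2 arrays that the treated difference does not use, show which differences were there before peroxide. In that comparison 198 genes (3.71% of 5344) were higher and 170 (3.18%) lower in sod1Δ. Of the 164 genes higher after treatment, 72 (43.9%) were also higher before it, 91 were under 2-fold and 1 was past 2-fold the other way, and 153 had the same sign. Of the 338 lower genes, 74 (21.9%) were also lower before it, 263 were under 2-fold and 1 was past 2-fold the other way, and 316 had the same sign. Both strain differences carry the same genotype and array platform, and over 5319 genes other than SOD1 they had a Pearson correlation of 0.62. With SOD1 kept, the Spearman rho was 0.61. Both values are given as a description. Past 2-fold in both conditions were all 6 lower phosphate genes, 5 of the 6 higher thiamine genes and 5 of the 6 higher autophagy genes. For cohesin and 40S assembly the untreated counts were 0 of 16 and 1 of 56, the 40S assembly genes standing at higher levels before treatment. With 1 array per group, no test of a change in the strain difference was possible.

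**Figure D5:**
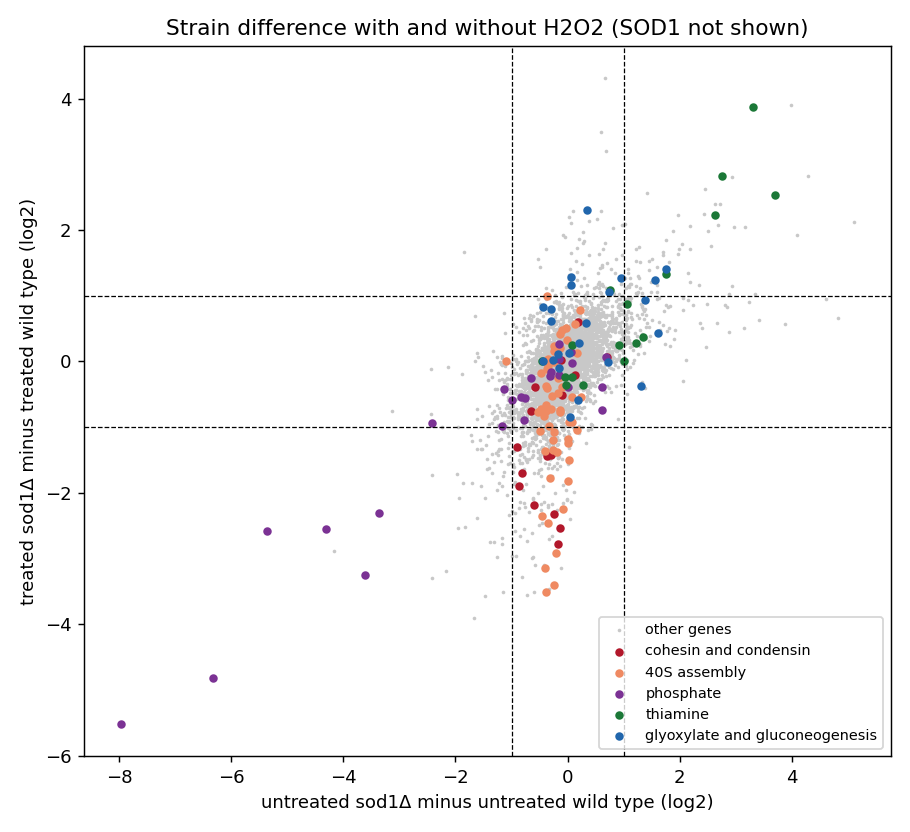
Each point is 1 gene: the x axis is the untreated and the y axis the treated log2 difference, sod1Δ minus wild type, with dashed lines at 2-fold. The 6 phosphate genes lower after treatment lie low on both axes, 5 of the 6 higher thiamine genes lie past 2-fold on both, while cohesin and 40S assembly genes past 2-fold spread down the y axis near 0 to -1 on the x axis.

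The lower genes also differed in their own response to H2O2 from the higher ones. Of the 338 lower genes, 122 were down with H2O2 in wild type and 69 up, and in sod1Δ 176 were down and 28 up. Of the 164 higher genes, 57 were up in wild type and 38 down, and in sod1Δ 74 were up and 29 down. Over all genes 915 (17.1%) were up and 862 (16.1%) down in wild type, and 782 (14.6%) were up and 844 (15.8%) down in sod1Δ. These responses share the treated arrays with the strain difference, so the counts describe where the genes ended and do not bear on it independently. Coding length showed a weaker gradient than level: 5.34% of genes under 1000 bases were lower, 6.43% from 1000 to 2000 and 7.77% above. The 18 hybridization control probe sets differed by 0.01 to 0.56 between the treated arrays, with a median of 0.25 in favour of sod1Δ. The 3′ minus 5′ signal of 7 control genes differed by -0.24 to 1.60, with a median of -0.10. SRB4 gave the 1.60.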

How the data were processed

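Total RNA from 4 yeast cultures was measured on 4 Affymetrix arrays. The values are log2 signals per probe set as deposited by the authors. GCRMA, which subtracts a background modelled on probe sequence, produced them per the submitters' processing notes; its version is not given in the sources used here. That correction presses absent transcripts into a narrow band, which can stretch folds ending there.

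Of 10928 probe sets, 5498 named 1 S. cerevisiae gene through the platform annotation. Symbols were updated for 12 through the RefSeq gene table (assembly R64), and probe sets of a gene were averaged to 5449 genes, of which 47 had several. Another 81 genes had only probe sets shared with similar genes. The floor was the 95th percentile of 1746 S. pombe probe sets over all arrays. A fold whose dimmer array did not exceed the floor was computed against the floor and is written as at least that size. Arrays give no counting depth, and their number, 1 per group, limits the precision: no test was possible, and genes were counted past 2-fold.

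The members and lists were chosen with earlier results of these data known. Named genes were the 25 largest increases and decreases with the brighter treated array at 7 or above, the 10 largest of each among dimmer genes, and, from each list, the 6 members or fewer that differed most. All SOD1 neighbours, alpha mating type and auxotrophic markers were added, which gave 373 genes; the text names a selection and says where others were chosen after their values were seen. A running median over 301 genes was used for level-dependent centring. The steps were tested on simulated data. Python 3.11.15, pandas 2.3.3 and numpy 2.4.6 were used. Promoter and protein sequences were not used here.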

Additional observations from a re-analysis of the deposited data

Results flagged for a closer look

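The strain difference took opposite signs past 2-fold with and without H2O2 for 2 genes. CUR1, which helps sort misfolded proteins, was at 5.95 and 4.10 untreated and 7.09 and 8.76 treated, a treated difference of 1.67 and an untreated difference of -1.84. RNR3, the damage-inducible ribonucleotide reductase subunit, had a treated difference of -1.31 and an untreated difference of 1.09. With 1 array per group the change between conditions was not tested.

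Some probe sets with no gene name here were also past 2-fold. Of 171 such probe sets whose brighter treated array was at 7 or above, 6 were at least 2-fold higher and 7 at least 2-fold lower in treated sod1Δ, with differences from -2.39 to 2.21. Among the 4520 genes at that level 2.74% were higher and 3.89% lower. The counts lie near those shares and are not read as a result.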

How the results depend on the processing

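No paired analysis was possible because each group has 1 array. The main count of 338 lower genes became 215 after quantile normalization, 155 with 32 added to the linear signal, 123 at 3-fold, 806 at 1.5-fold and 176 with the brighter array at 7 or above, a setting chosen after seeing the data. The 164 higher genes became 62 at 3-fold and 482 at 1.5-fold. The share of all calls that were higher was 32.7% in the deposited values, 51.7% after quantile normalization, 46.8% after level-dependent centring, 42.6% with 32 added and 41.3% with the brighter array at 7 or above. The 74 genes lower in both conditions became 46, 45, 24 and 28 under those 4 settings in the same order. The fall in the lower count with 32 added or at 7 or above comes from dim genes leaving it by construction; the cause of the other shifts was not tested. Quantile normalization moved the all-gene median by 0.06. List medians that changed sign were all within 0.19 of 0. Quantile normalization and level-dependent centring turned peroxisome, lysine, proteasome and hypoxic genes, quantile normalization also 60S assembly, and narrower gene sets turned copper, hypoxic and meiosis genes. Of 200 named genes past 2-fold, 182 stayed past it after quantile normalization, 187 after level-dependent centring and 153 with 32 added. Signal over background limits what can be said of genes that end near the floor.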

Other observations

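Pre-mRNA splicing factors were listed after the values had been seen, because several stood among the lower genes. Of 81, 15 were lower in treated sod1Δ and none higher, with a median of -0.30 and 61 differences below 0. Over all genes 6.33% were lower. The median level of the list was 7.83, and among all genes between 6 and 8 the share lower was 11.1%. HSH155, of the U2 particle, was at 6.56 and 5.93 untreated and 5.39 and 2.78 treated, a difference of -2.62, and CDC40, a second-step factor, was at 7.38 and 6.43 untreated and 6.28 and 3.69 treated, a difference of -2.58. MUD2, which helps define the branch point region, was at 7.45 and 7.22 untreated and 6.52 and 4.51 treated, a difference of -2.004. Level-dependent centring gave 10 lower and 1 higher. With the brighter array at 7 or above 7 of 59 were lower, against 3.89% of all genes at that level. In the untreated strains 2 were lower, with a median of -0.29, close to that after treatment.

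The Smc5-Smc6 complex, a relative of cohesin in DNA repair, was also listed afterwards. Of its 8 genes 2 were lower, with a median of -0.64. The median level of the list was 7.31, in the same class with 11.1% of all genes lower. NSE4, its bridging subunit, was at 6.27 and 5.50 untreated and 6.64 and 4.09 treated, a difference of -2.56, and SMC6 was at 8.72 and 8.51 untreated and 8.38 and 7.20 treated, a difference of -1.18. None of the 8 was past 2-fold in the untreated strains.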
